A study of Mus musculus with 24 samples.

Results

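Chromatin accessibility was compared between 6 mice that carried an expanded Htt allele and lacked Msh3 and 6 mice that lacked Msh3 alone. The comparison took all 12 libraries of these 2 genotypes out of 24 libraries in the series. The assay, ATAC-seq, uses the transposase Tn5 to insert sequencing adapters into DNA free of nucleosomes, so that counts over a region report how open it is. Nuclei came from the striatum of C57BL/6 mice aged 12 months, and nuclei stained for NeuN, a protein of most neuronal nuclei, were sorted before 50000 of them per library were transposed. The group written Q140_Msh3KO carries the label Msh3-/- X Het (Q140) KI: these animals are heterozygous for a knock-in of huntingtin with a long CAG repeat and are Msh3-/-. The group written Msh3KO is labelled Msh3-/-. Both groups therefore lack Msh3, and the Htt allele is the stated difference between them. Each group held 3 females and 3 males. The other 12 animals, 6 wild type (WT) and 6 Het (Q140) KI with Msh3 present (Q140), entered the model and served for comparison. The sort did not separate types of striatal neuron, and the CAG length of each animal is not given in the sources used here.

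Huntington's disease is caused by an expanded CAG repeat in Htt, and the projection neurons of the striatum are among the cells it harms most. The repeat grows further in striatal neurons over life, and Msh3, a DNA mismatch repair protein, is needed for that growth in mouse models. A knock-in allele in animals without Msh3 thus still makes expanded huntingtin, and the comparison asks what that allele does to neuronal chromatin when Msh3 is absent. Open regions away from promoters are often enhancers, and the gene names given to peaks in the text mark only the closest annotated start, whether or not that gene is controlled from there.

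Total counts in peaks ran from 4372251 to 9868256 in the 6 Msh3KO libraries and from 5823567 to 11736557 in the 6 Q140_Msh3KO libraries. A tested peak had 27.8 counts per library at the median. The 10 highest peaks held 12.7% of all counts in Q140_Msh3KO M1 and 3.32% to 4.74% in the other 5 libraries of that genotype. Peaks on the X chromosome held 1.47% of the counts of Q140 F2. The range was 1.49% to 1.59% among the 12 males and 1.72% to 1.94% among the remaining 11 animals labelled female, so the sex label of Q140 F2 is in doubt, and it was fitted and plotted as labelled. The promoters of Ppp1r1b and Drd1 were open in all 12 animals, with 57.7 to 97.9 CPM (counts scaled to a common library total) at Ppp1r1b, the phosphoprotein DARPP-32 of projection neurons, and 24.6 to 38.0 at Drd1, the dopamine receptor of the direct pathway. The promoter of Drd2, the dopamine receptor of the indirect pathway, held 5.85 to 9.67 CPM. Glial promoters, whose peaks are narrower, held 1.18 to 3.48 CPM at Mog and 3.47 to 7.71 at Mbp, both of oligodendrocytes, and 2.15 to 4.48 at Aldh1l1 of astrocytes. No promoter peak was listed for Gja1, Cx3cr1, Csf1r, Cldn5 or Pecam1, markers of astrocytes, microglia and endothelium. Over all 62 peaks of endothelial and pericyte markers the summed level was 204 to 224 CPM in Q140_Msh3KO and 226 to 259 in Msh3KO, so these groups did not overlap, and the part of this difference in the results below was not tested. Sums over markers of astrocytes, oligodendrocytes, microglia, interneurons and cortical neurons overlapped between the groups. In bulk libraries, fewer cells of a type and less open chromatin per cell cannot be told apart.

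No change in accessibility was called at the targeted genes. At the Htt promoter (chromosome 5, 34760964 to 34762717; every position is on GRCm38) the Msh3KO animals held 36.1, 45.6 and 54.8 CPM as lowest, median and highest value, and the Q140_Msh3KO animals 39.8, 44.6 and 48.3. The groups overlapped, with a log2 fold change of -0.03 ± 0.11 (SE; edgeR adjusted p = 0.992). The Msh3 promoter (chromosome 13, 92354380 to 92355482) held 61.8 to 84.1 CPM and 58.2 to 71.9 CPM, with a log2 fold change of -0.09 ± 0.10. None of 3 peaks annotated to Htt or 6 annotated to Msh3 was called, at smallest adjusted p of 0.744 and 0.942. Accessibility does not report the repeat length or the protein, so these values do not check either allele.

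With all animals in the fit, a small set of regions was called as different with the Htt allele, and most of these were lower. Of 146155 tested peaks, 169 had an adjusted p of at most 0.05 in edgeR's quasi-likelihood test, or 0.116%. Of these, 34 were higher (0.0233% of tested peaks) and 135 were lower (0.0924%) in Q140_Msh3KO. Log2 fold changes ran from 0.70 to 1.39 among higher peaks, at a median of 0.95, and the lower peaks fell by 0.54 to 1.63, at a median of -0.84. The median over all tested peaks was -0.01. The per-animal CPM ranges of the groups did not overlap at 23 of 34 higher and 78 of 135 lower peaks. The test that chose these peaks used the same values, which favours such separation. The share without overlap among all tested peaks is not given here. At an unadjusted p under 0.05 there were 11220 peaks, or 7.68%, of which 4857 were higher and 6363 lower. DESeq2 called 225 peaks and limma-voom 121. The plot of fold change against mean accessibility shows the called peaks at moderate levels on both sides of 0.

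**Figure D1:**
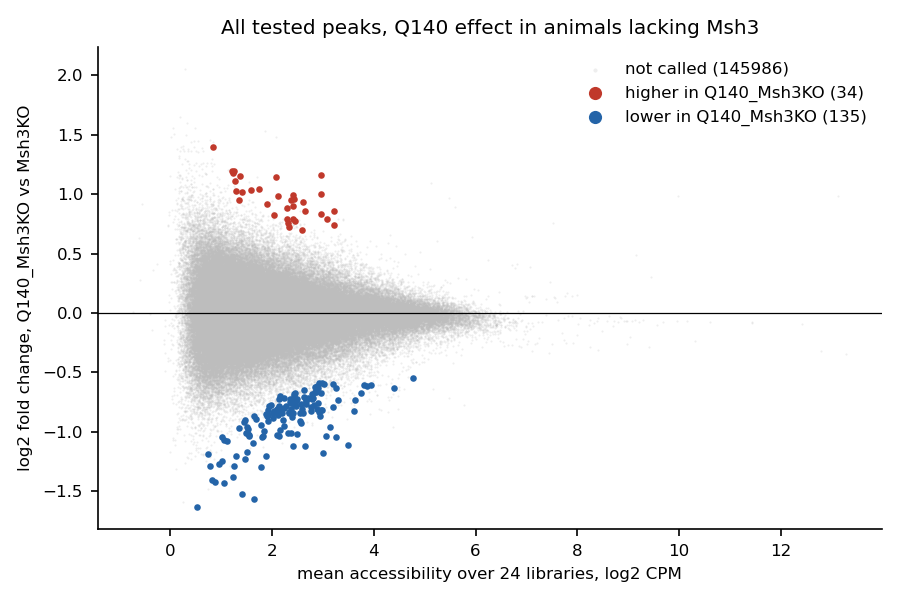
Log2 fold change of Q140_Msh3KO against Msh3KO (vertical axis) by mean log2 CPM over 24 libraries (horizontal axis) for 146155 tested peaks. Grey points did not pass the threshold, 34 red points were higher and 135 blue points lower in Q140_Msh3KO, and most called peaks lie at a mean log2 CPM between 0 and 4.

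The number of called peaks rested on single animals. Leaving out the control animals Msh3KO F2, F3, M1, M2 and M3 in turn gave 368, 58, 39, 73 and 49 calls. Leaving out Q140_Msh3KO F1, F3, M2 and M3 gave 71, 59, 76 and 15, and the other 3 omissions (Msh3KO F1, Q140_Msh3KO F2 and M1) gave 156, 126 and 223. The excess of lower peaks was absent without Msh3KO F3 (28 higher, 30 lower) and without Q140_Msh3KO F3 (34 higher, 25 lower). With cyclic loess scaling the split was 110 higher and 191 lower. Without Q140_Msh3KO M1 and Q140 F2, the libraries that stood apart, there were 183 calls, 59 higher and 124 lower. All 169 peaks kept the sign of their fold change in each of the 12 fits without 1 animal, which their choice on all animals favours. The p-values measure the spread between these animals.

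The most stable differences were 14 peaks called in every one of the 12 fits without 1 animal and in every other setting that tested them, 2 of them higher and 12 lower. They were picked out after their values were seen. The smallest adjusted p, 1.2e-04, belonged to peaks near Wnt4 and Zfp704. Wnt4 encodes a secreted Wnt ligand. An intronic peak of Wnt4 (chromosome 4, 137282723 to 137283371) held 9.74, 12.3 and 17.1 CPM as lowest, median and highest value in Msh3KO, and 5.91, 6.23 and 6.75 in Q140_Msh3KO. All 6 animals with the Htt allele lay below all 6 without it, and the peak fell by 1.04 ± 0.14 on the log2 scale (SE). Near Zfp704, a zinc finger gene, an intergenic peak 69.5 kb from the start (chromosome 3, 9679212 to 9680063) held 14.9, 16.7 and 24.9 CPM in Msh3KO against 6.00, 8.97 and 10.4 in Q140_Msh3KO. It fell by 1.11 ± 0.14, again with no overlap. In Q140 vs WT the log2 fold changes were -1.54 at Wnt4 and -1.27 at Zfp704.

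Among these stable peaks, Dipk2a and Mroh9 marked the regions that opened. The peak 378 kb from Dipk2a, of a family of kinase-like proteins (chromosome 9, 94159295 to 94160003), held 2.88, 4.74 and 6.38 CPM in Msh3KO and 9.04, 10.5 and 13.9 in Q140_Msh3KO. Every animal with the Htt allele was above every control, and the log2 fold change was 1.16 ± 0.16 (adjusted p = 3.3e-04). The peak 28.0 kb from Mroh9 (chromosome 1, 163113201 to 163114062) held 4.21, 5.42 and 6.20 CPM against 8.54, 10.04 and 14.7, with a log2 fold change of 1.00 ± 0.14 (adjusted p = 3.3e-04) and no overlap. Q140 vs WT gave 1.97 at Dipk2a and 1.12 at Mroh9.

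Further stable peaks that fell lay near Skint6, Duxbl3, Olfm4, Xkr5, Wdr86, Olfr1507, Shisa9, Mir429 and Rnf217. Shisa9 encodes an auxiliary subunit of AMPA-type glutamate receptors. Its intergenic peak, 405 kb from the start (chromosome 16, 12389147 to 12390129), held 7.53, 14.6 and 20.6 CPM in Msh3KO and 4.87, 7.29 and 9.08 in Q140_Msh3KO. The ranges overlapped there, and the peak fell by 1.05 ± 0.16 (adjusted p = 0.0015). Rnf217, an E3 ubiquitin ligase, has a large intronic peak (chromosome 10, 31830494 to 31831431) with 15.6, 17.9 and 24.8 CPM in controls and 8.60, 10.4 and 14.0 in carriers of the Htt allele. No values overlapped, and this peak fell by 0.82 ± 0.14 (adjusted p = 0.0044). Near Olfm4, a secreted glycoprotein, the peak 450 kb away fell by 1.12 ± 0.17 (adjusted p = 0.0015), from 5.54 to 11.4 CPM in controls to 3.28 to 5.29. Peaks near Duxbl3, a double homeobox gene, Olfr1507, an olfactory receptor, and Wdr86 fell by 0.96 ± 0.15, 0.82 ± 0.13 and 0.81 ± 0.14, each without overlap. Wdr86 lies within 20 Mb of Htt on chromosome 5. Duxbl3 and Olfr1507 belong to families of similar copies, where the placing of reads is uncertain.

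The stable peak near Mir429 lay 370 bases from the hairpin of this microRNA (chromosome 4, 156052980 to 156053534). It held 5.64, 7.53 and 8.57 CPM in Msh3KO and 2.85, 3.64 and 4.56 in Q140_Msh3KO, and the groups did not overlap. It fell by 1.01 ± 0.18 on the log2 scale (adjusted p = 0.011). Mir429 belongs to the miR-200 family, which is known for repressing Zeb transcription factors and keeping epithelial identity, and Mir200b lies in the same cluster. The mature sequences from RefSeq (GRCm38.p6) are printed to show the shared seed, bases 2 to 8, in capitals:
miR-429-3p: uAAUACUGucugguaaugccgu
miR-200b-3p: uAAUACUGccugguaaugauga
miR-200c-3p: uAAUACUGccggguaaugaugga
These 3 were chosen for sharing the seed of miR-429-3p, so they differ only outside it. For 5 further lower peaks the nearest start was also a microRNA gene, Mir205, Mir344, Mir28a, Mir6415 and Mir8110, but the 4 with a hairpin in the table were 10798 to 281348 bases away. The data give openness at the peak and not the level of any microRNA.

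By size, and with 1 peak taken per gene, 7 of the 8 leading higher peaks without overlap were intergenic. Adgrb3, an adhesion receptor of synapses, had the largest log2 fold change among them, at 1.19 ± 0.26 (adjusted p = 0.048; chromosome 1, 26119689 to 26120135). Its peak lies 290 kb from the start and held 0.95, 1.04 and 1.37 CPM in Msh3KO and 1.58, 2.38 and 4.07 in Q140_Msh3KO. The carriers all exceeded the controls, from a low base. Near Ptbp2, a splicing regulator of neurons (chromosome 3, 119932983 to 119933370), the level was 0.89, 1.22 and 2.02 CPM against 2.61, 3.11 and 4.53, with a log2 fold change of 1.15 ± 0.23 (adjusted p = 0.021). Near A430085M09Rik, a peak 678 kb from its start (chromosome 4, 79271921 to 79272709) held 1.71, 2.67 and 3.15 CPM against 3.66, 4.79 and 9.62, with a log2 fold change of 1.14 ± 0.19 (adjusted p = 0.0054). Kcnv1, a modulatory subunit of voltage-gated potassium channels, had a peak 31.2 kb away (chromosome 15, 45145986 to 45146342) with 1.11, 1.75 and 2.26 CPM in controls and 2.82, 3.42 and 4.07 in carriers, at 1.02 ± 0.20 (adjusted p = 0.023). In all 3, the lowest carrier lay above the highest control. Near Adamts6, a secreted metalloprotease within 20 Mb of Msh3 (chromosome 13, 104501370 to 104501928), the level was 1.77, 1.96 and 2.39 CPM against 2.90, 4.21 and 6.25, at 1.05 ± 0.20 (adjusted p = 0.015). An intronic peak of Malrd1 held 1.07 to 2.28 CPM in controls and 2.82 to 4.75 in carriers (1.04 ± 0.23), and the peak near Zfp608, a zinc finger gene, 0.71 to 1.71 and 1.76 to 3.82 (1.18 ± 0.24). With Dipk2a these make up the 8.

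Of these 8, the Dipk2a peak kept its call in all 12 fits without 1 animal. The A430085M09Rik call ended in 1 fit, without Q140_Msh3KO M3, at adjusted p = 0.074. Ptbp2 kept its call in 9, Kcnv1 in 8, Adamts6 in 7, Zfp608 in 5, Malrd1 in 3 and Adgrb3 in 2. Their highest adjusted p, from 0.088 for Adamts6 to 0.281 for Adgrb3, also came without Q140_Msh3KO M3.

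The 8 leading lower peaks without overlap were all intergenic, and several lay in repeats or gene families. Cyp3a11, a cytochrome P450 best known from liver, had the largest loss at -1.63 ± 0.30 (adjusted p = 0.013), in an ERVK element 36.8 kb from the start (chromosome 5, 145916507 to 145916732). It held 1.67, 2.25 and 3.76 CPM in Msh3KO and 0.41, 0.75 and 1.08 in Q140_Msh3KO. The Skint6 peak, also in an ERVK element (chromosome 4, 113311504 to 113311964), held 3.93, 4.26 and 6.83 CPM against 1.04, 1.77 and 2.17. It fell by 1.53 ± 0.23 (adjusted p = 0.0015). Skint genes encode immunoglobulin-like proteins of skin and thymus. Xkr5, an XK-related membrane protein gene, had a peak 40.0 kb away (chromosome 8, 18910707 to 18911101) with 3.32, 5.30 and 6.38 CPM against 1.52, 1.80 and 3.11, and a log2 fold change of -1.29 ± 0.20 (adjusted p = 0.0017). Zfp990, of a cluster of zinc finger genes (chromosome 4, 145489445 to 145489752), gave -1.43 ± 0.28, with 2.74 to 5.12 CPM in controls and 0.34 to 2.17 in carriers, and a second called peak at Smarca5-ps lies 2.24 kb from it. The remaining 4 lay near genes without an established role. Controls held 2.50 to 5.06 CPM and carriers 0.91 to 2.15 near 4930467E23Rik (-1.38), and 2.21 to 4.77 against 1.02 to 2.15 near Gm4425 (-1.29). Near 4930553E22Rik (-1.28) the ranges were 1.99 to 3.18 and 0.75 to 1.43, and near 1700030C10Rik (-1.27) 2.14 to 3.47 and 0.81 to 1.47. Reads in repeats and in members of the Cyp3a, Skint and zinc finger families may fit several copies, so the placing of these counts is uncertain.

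Of these 8, Skint6 and Xkr5 kept their calls in all 12 fits without 1 animal. Cyp3a11 and Gm4425 kept theirs in 10, 4930467E23Rik in 7 and Zfp990 in 6, while 4930553E22Rik and 1700030C10Rik kept theirs in 1. The highest adjusted p was 0.057 for Cyp3a11, without Q140_Msh3KO F3, and 0.174 for 4930553E22Rik, without Q140_Msh3KO M3. The plot of these 16 peaks by animal also shows WT and Q140. At Dipk2a the WT mean was 4.11 CPM and the Q140 mean 16.1. At Zfp608 the WT animals, at 1.36 to 2.74 CPM, overlapped the Q140_Msh3KO animals.

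**Figure D2:**
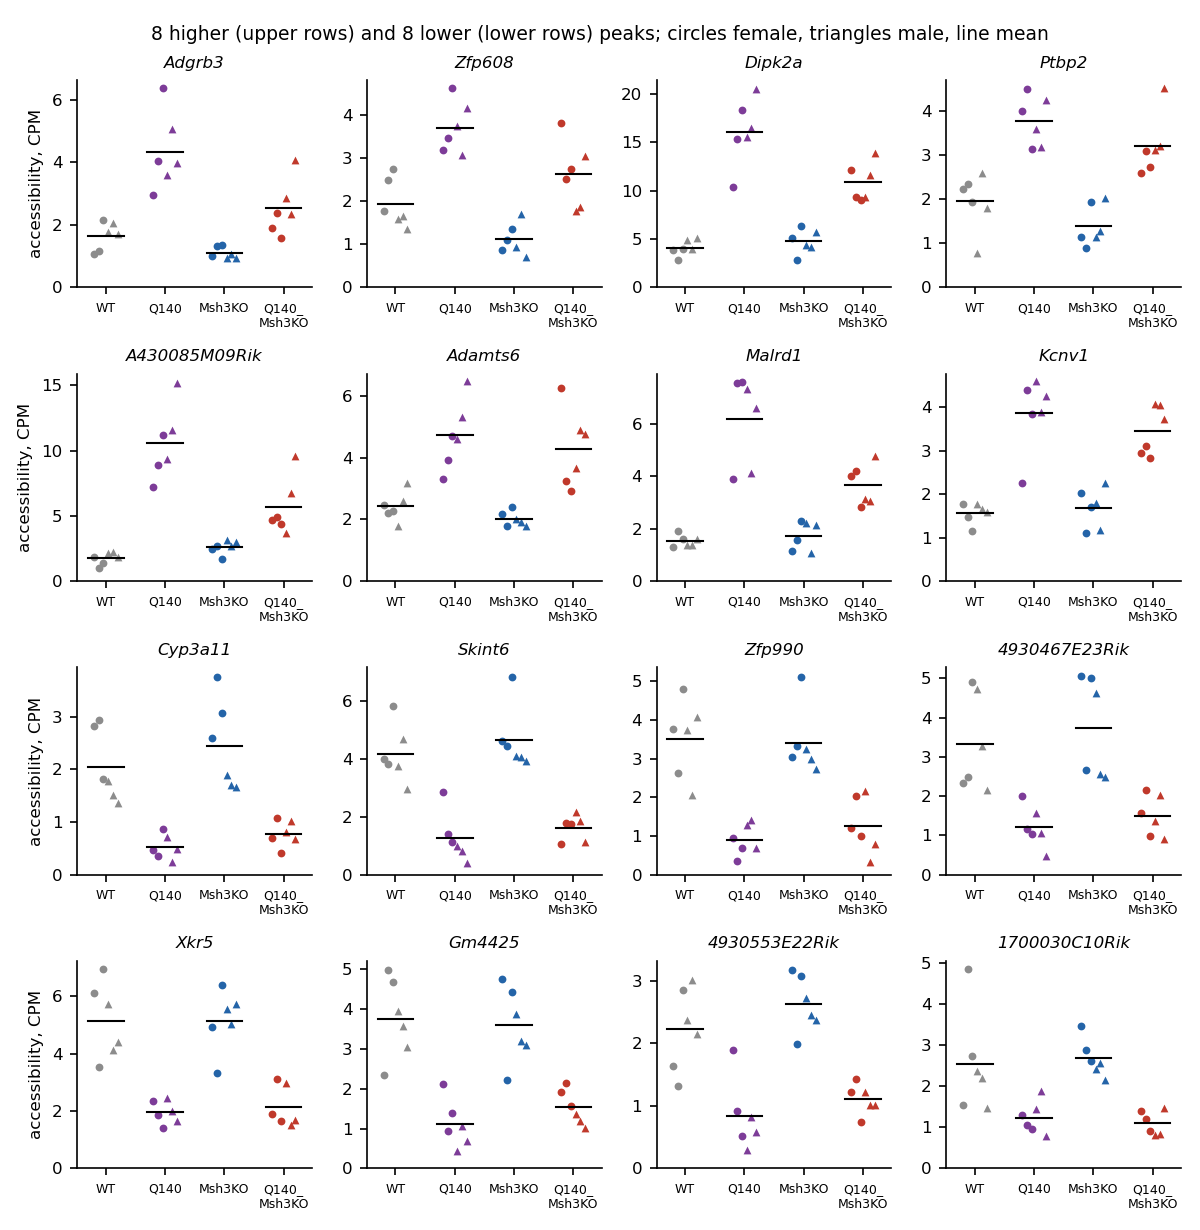
CPM per animal (vertical axis) in the 4 genotypes (horizontal axis) at the 8 higher peaks (upper rows) and 8 lower peaks (lower rows) with the largest fold changes among called peaks without overlap; circles are labelled females, triangles males and lines group means. At Dipk2a the Q140_Msh3KO animals lie at 9.04 to 13.9 CPM and the Msh3KO animals at 2.88 to 6.38.

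Several called peaks shared a nearest gene or lay beside another, and those given here were named after their values were seen. Ifi27l2a and Ifi27l2b are neighbouring genes of an interferon-inducible family. The promoter peak of Ifi27l2a (chromosome 12, 103444212 to 103444997) held 8.67, 12.5 and 14.8 CPM in Msh3KO and 6.24, 7.08 and 8.36 in Q140_Msh3KO. The groups did not overlap, and it fell by 0.79 ± 0.15 (adjusted p = 0.013). The 2 intronic peaks of Ifi27l2b, 7.22 kb and a further 4.09 kb away, fell by 0.91 ± 0.17 and 0.84 ± 0.18 (adjusted p = 0.014 and 0.034), with overlapping groups. Among higher peaks, 3 were nearest to Fscb and 3 to Lrrn3, a leucine-rich repeat protein of neurons, all on chromosome 12 and 167 to 690 kb from the start. Log2 fold changes were 0.99 to 1.39 at the Fscb peaks and 0.74 to 1.20 at the Lrrn3 peaks. Without Q140_Msh3KO M3, the adjusted p was 0.074 at the Ifi27l2a promoter, at most 0.135 at the Ifi27l2b peaks, at most 0.167 near Fscb and at most 0.194 near Lrrn3.

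Some called peaks lay near genes of neurotransmission, and these too were picked after their values were seen. The peak 43.9 kb from Chrm3, a muscarinic acetylcholine receptor, fell by 1.02 ± 0.19 (adjusted p = 0.015), from a median of 6.30 CPM to 3.00. An intronic peak of Chrna7, a nicotinic receptor subunit, held 22.4 to 35.7 CPM in Msh3KO and 15.5 to 23.5 in Q140_Msh3KO and fell by 0.63 ± 0.13 (adjusted p = 0.034). An intronic peak of Prkar2a, a regulatory subunit of protein kinase A, went from 8.41 to 11.8 CPM in controls to 4.34 to 6.92 in carriers, with no overlap and a log2 fold change of -0.72 ± 0.13 (adjusted p = 0.014). An intronic peak of Slc6a11, a GABA transporter, gave -0.63 ± 0.14 (adjusted p = 0.049), also with no overlap. The highest adjusted p in the fits without 1 animal was 0.109 for Chrm3 and 0.192 for Chrna7, both without Q140_Msh3KO M3, and 0.077 for Prkar2a and 0.182 for Slc6a11, both without Msh3KO F3.

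The gene lists, of striatal function, other cell types and cell processes, had few or no called peaks. Calls were rare among all tested peaks, so 0 calls do not set a list apart. Of 20 lists, 17 had 0 called peaks by edgeR among 5283 peaks, beside 0.116% of all tested peaks. At an unadjusted p under 0.05 these lists held 164 higher and 220 lower peaks, counting a gene in several lists each time. Over all 146155 tested peaks, 4857 were higher and 6363 lower at that level, or 7.68% together. DESeq2 called 2 of their peaks and limma-voom 1. The list of projection neuron identity, with genes such as Ppp1r1b, Rarb, Penk and Ryr1, had 0 of 886 peaks called by edgeR and a median log2 fold change of -0.02, against -0.01 over all tested peaks. At an unadjusted p under 0.05, 22 of its peaks were higher and 36 lower, beside 7.68% of all tested peaks in either direction. DESeq2 called 1 of its peaks and limma-voom 0. In Q140 vs WT, where 4.2% of all tested peaks were called higher and 6.11% lower, the same list had 25 higher and 97 lower calls and a median of -0.12. The list of cAMP and dopamine signalling likewise had 0 of 693 peaks called by edgeR, 20 higher and 33 lower at an unadjusted p under 0.05, and a median of -0.03. Glutamate receptors and the postsynaptic density had 0 of 1327, with 45 and 59, and cholesterol synthesis 0 of 154, with 3 and 2. Prkar2a and Shisa9, whose called peaks are given above, are on none of these lists, so each 0 holds for the listed genes only.

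The 4 genes of the identity list with the smallest p in Q140 vs WT were Ryr1, Rarb, Penk and Strn. Their peaks there were below 0 without Msh3 too, at a smaller size and short of the threshold. Their choice on Q140 vs WT favours the larger size there. Ryr1, an intracellular calcium release channel, had a promoter peak (chromosome 7, 29125029 to 29125433) with 5.49, 6.92 and 7.74 CPM in Msh3KO and 4.07, 4.73 and 5.43 in Q140_Msh3KO. The groups did not overlap, yet the log2 fold change of -0.52 ± 0.15 had an adjusted p of 0.163, where Q140 vs WT gave -1.19. A peak 5.79 kb from Penk, the enkephalin precursor of indirect pathway neurons, read -0.48 ± 0.14 (adjusted p = 0.204) against -1.15, and an intronic peak of Rarb, a retinoic acid receptor, read -0.27 ± 0.14 (adjusted p = 0.664) against -1.10. An exonic peak of Strn, striatin, a scaffold protein of dendrites, read -0.41 ± 0.15 (adjusted p = 0.384) against -1.08. The difference between the 2 effects was not past the threshold at any of these peaks, with adjusted p for the interaction of 0.326 at Ryr1, 0.307 at Penk, 0.129 at Rarb and 0.335 at Strn. By the same rule, the list of the direct pathway gave Eya1, Tac1, Zfp521 and Chrm4. A peak near Tac1, the substance P precursor, read 0.74 ± 0.18 (adjusted p = 0.0702) against 1.09. The Eya1 peak read -0.64 ± 0.16 (adjusted p = 0.083) against -1.47. The Zfp521 peak read 0.27 ± 0.20 (adjusted p = 0.858) against 1.18, and the Chrm4 peak -0.27 ± 0.15 (adjusted p = 0.710) against -0.77. Adjusted p for the interaction was 0.836 at Tac1, 0.215 at Eya1, 0.287 at Zfp521 and 0.550 at Chrm4.

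Called peaks, all of them lower, were found in 3 lists. The list of potassium channel genes leaves out Kcnv1, whose called peak, given above, was higher (log2 fold change 1.02). On that list 2 of 786 peaks were called, or 0.254%. They lay in an intron of Kcnj6, a G protein-gated inward rectifier (chromosome 16, 94869289 to 94869786; 5.56, 7.04 and 8.88 CPM in Msh3KO, 2.72, 3.96 and 5.02 in Q140_Msh3KO), and near Kcnt1, a sodium-activated channel (chromosome 2, 25858709 to 25859155; 7.23, 8.12 and 9.11 CPM against 3.85, 4.79 and 6.08). Neither peak had overlapping groups. The Kcnj6 peak fell by 0.84 ± 0.17 (adjusted p = 0.026) and the Kcnt1 peak by 0.74 ± 0.16 (adjusted p = 0.032), calls kept in 7 and 5 of the 12 fits without 1 animal, with 0.165 and 0.192 as the highest adjusted p, without Q140_Msh3KO M3. The cortical neuron markers had 1 of 186 peaks called, in an intron of Rorb, a nuclear receptor of cortical layer neurons (chromosome 19, 18950217 to 18950567), at -1.41 ± 0.28 (adjusted p = 0.021), from 1.55 to 4.44 CPM to 0.75 to 1.59. The groups overlapped, the call held in 9 of the 12 fits without 1 animal, with 0.123 as the highest adjusted p without Msh3KO F3, and DESeq2 gave this peak no adjusted p.

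Developmental regulators that Polycomb represses in neurons had 2 of 674 peaks called, or 0.297%, both lower. One lay 21.1 kb from Foxd3 (chromosome 4, 99634991 to 99635425), at -1.20 ± 0.23 (adjusted p = 0.019), with 3.32, 6.27 and 7.85 CPM in Msh3KO and 1.91, 2.47 and 3.8 in Q140_Msh3KO. The other lay 34.9 kb from Gata2 (chromosome 6, 88158760 to 88159236), at -0.78 ± 0.17 (adjusted p = 0.046), with 3.47, 5.23 and 6.60 CPM against 2.63, 3.03 and 3.82. Both encode transcription factors of embryonic lineages, both peaks had overlapping groups, and the calls held in 5 and 2 of the 12 fits without 1 animal, with 0.121 and 0.197 as the highest adjusted p, without Q140_Msh3KO M3. The median of the list was -0.03. In Q140 vs WT this list had 63 higher and 19 lower calls, beside 4.2% and 6.11% of all tested peaks, and a median of 0.10. Of the 63 peaks higher there, 48 had a positive log2 fold change in Q140_Msh3KO vs Msh3KO, at a median of 0.17 against 0.87, where 88.1% of all peaks higher in Q140 vs WT had that sign.

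Called peaks lay mostly outside genes. Intergenic peaks made up 82.4% of higher and 58.5% of lower peaks, against 37.1% of tested peaks, and intronic peaks 17.6% and 34.8%, against 47.2%. Promoter peaks were 2 of 10167 tested, those of Ifi27l2a and Olfr577, an olfactory receptor gene (-1.12 ± 0.21, adjusted p = 0.021, and 0.121 without Q140_Msh3KO M3), both lower. Higher peaks lay at a median of 194 kb from the nearest start, lower peaks at 38.4 kb and tested peaks at 28.8 kb, and 67.6%, 31.1% and 21.6% lay more than 100 kb away. Lower peaks had a median of 7.03 CPM in Msh3KO, against 3.41 for higher and 3.44 for tested peaks. In Q140_Msh3KO the order was reversed, at 3.98 for lower and 6.15 for higher peaks. The choice of peaks by fold change favours both. Mean counts over all libraries were alike, at medians of 42.1 for lower and 43.3 for higher peaks, against 27.8 for tested peaks. Peaks in annotated repeats were 14.7% of higher, 28.9% of lower and 22.2% of tested peaks. Among 3546 peaks in ERVK elements, a family of endogenous retroviruses, 13 were lower and 0 higher by edgeR, or 0.367% called beside 0.116% of all tested peaks. In Q140 vs WT 6.94% of them were called in either direction. This was below the share of all tested peaks, of which 4.2% were called higher and a further 6.11% lower (15066 of 146155 together). Within 20 Mb of Htt, 3 peaks were higher and 7 lower of 2656, or 0.377%, against 0.112% outside the windows around Htt and Msh3. An effect of the Htt allele and one of DNA linked to it cannot be told apart there.

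**Figure D3:**
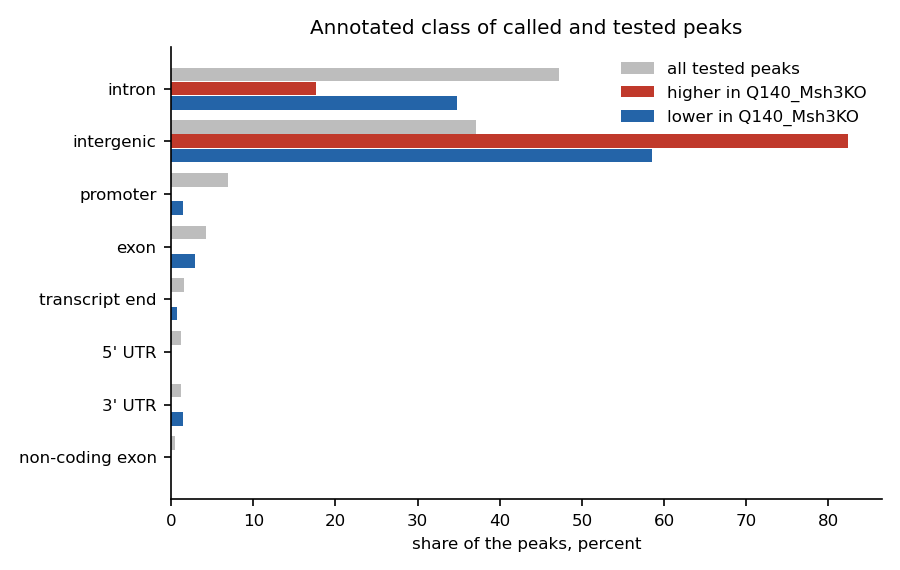
Share of peaks (horizontal axis, percent) in each annotated class (vertical axis) for all tested peaks (grey), higher peaks (red) and lower peaks (blue). Intergenic peaks are 82.4% of higher and 58.5% of lower peaks against 37.1% of tested peaks, and no higher peak is at a promoter.

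The regions that differed were nearly all regions that the same allele changed in animals with Msh3. Q140 vs WT shares 0 animals with Q140_Msh3KO vs Msh3KO, although all come from one fit with a common spread. It called 6142 higher peaks (4.2% of tested peaks) and 8924 lower peaks (6.11%). All 169 peaks had the same sign there, and 162 of them were called there in the same direction, 32 of the 34 higher and 130 of the 135 lower. These 162 are 95.9% of the calls without Msh3 and 1.08% of the calls with it. The 7 not called in Q140 vs WT lay near Gdnf, Mir205, Sort1, Snord85, Psg22, Ccdc83 and Gm26994. Gdnf encodes a growth factor for dopamine neurons, and its peak fell by 1.02 ± 0.22 (adjusted p = 0.045) against -0.59 in Q140 vs WT, a difference not past the threshold (interaction adjusted p = 0.858). Sort1, a sorting receptor, had an intronic peak at 0.79 ± 0.16 (adjusted p = 0.029) against 0.22 (interaction adjusted p = 0.517). Without Q140_Msh3KO M3 the adjusted p was 0.206 for Gdnf and 0.165 for Sort1.

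The effect was smaller without Msh3 than with it in most called peaks. The median log2 fold change of the 34 higher peaks was 0.95 without and 1.23 with Msh3, and that of the 135 lower peaks -0.84 and -1.18. The absolute value was smaller without Msh3 in 25 of 34 and 113 of 135, although the peaks were chosen for their values without Msh3. The test of the difference itself was past the threshold at 1 of the 169. Over all peaks called in Q140 vs WT, 88.1% of those higher there and 92.3% of those lower there had the same sign without Msh3, where 48.3% of all tested peaks were above 0 and 51.7% below. Their medians were 0.25 against 0.74 and -0.26 against -0.68, the larger values being those that chose the peaks. Peaks with larger changes in Q140 vs WT had larger values here: the 108 that fell by more than 1.5 there were all below 0, with a median of -0.71 and 30 called (27.8%), while the 195 that rose by more than 1.5 had a median of 0.55 and 6 called (3.08%). Pearson's r between the effects was 0.820 over the peaks called in Q140 vs WT and 0.430 over all tested peaks, as a description of peaks that share libraries and depth.

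**Figure D4:**
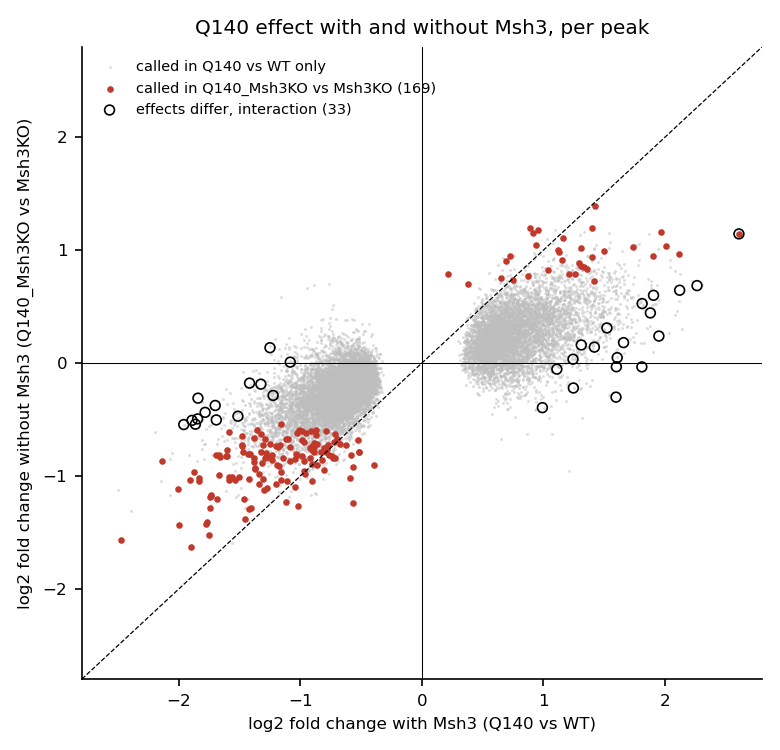
Log2 fold change without Msh3 (Q140_Msh3KO vs Msh3KO, vertical axis) against that with Msh3 (Q140 vs WT, horizontal axis) for peaks called in either; grey points were called only in Q140 vs WT, red points are the 169 called without Msh3 and open circles the 33 whose effects differed. The dashed line marks equal effects, and the open circles lie between it and the horizontal axis, or across that axis for 8 of them.

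In single animals, the peaks called higher in Q140 vs WT separated Q140_Msh3KO from Msh3KO. Their mean log2 CPM, relative to the Msh3KO mean, was -0.12, 0.02 and 0.06 in Msh3KO as lowest, median and highest value and 0.12, 0.25 and 0.44 in Q140_Msh3KO. The groups did not overlap, and all Q140_Msh3KO animals but one lay below the range of 0.41 to 0.74 seen in Q140. Both sets of peaks were chosen on the values of the Q140 and WT animals. That choice favours Q140 values far from the rest. For the peaks called lower, the values were -0.27, 0.02 and 0.26 in Msh3KO and -0.40, -0.20 and -0.13 in Q140_Msh3KO, where the groups overlapped, and -0.68 to -0.54 in Q140. Q140_Msh3KO M3, whose omission left the fewest calls, was the highest of its group over the first set at 0.44 and second lowest over the other at -0.32, and Msh3KO F3 was the highest control over the other at 0.26. WT animals lay at -0.23 to -0.11 and -0.01 to 0.28. Over the lists, 21 pairs of a list and a direction had at least 10 peaks called in Q140 vs WT. In all 21 the median had the same sign and a smaller size without Msh3. The choice of peaks on Q140 vs WT favours that smaller size. Some genes are in several lists, so the pairs are not separate support.

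**Figure D5:**
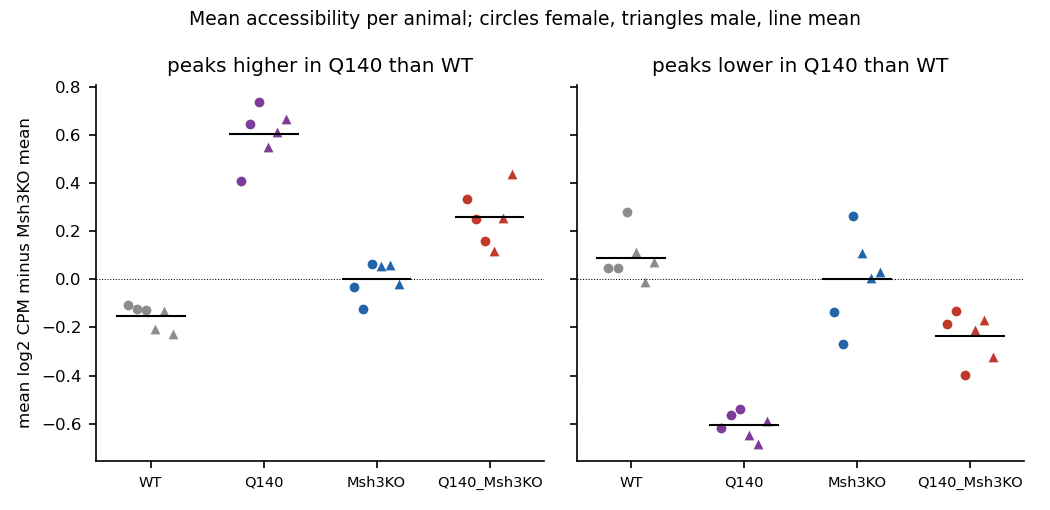
Mean log2 CPM per animal relative to the Msh3KO mean (vertical axis) in the 4 genotypes (horizontal axis), over the 6142 peaks higher (left) and the 8924 peaks lower (right) in Q140 than WT; circles are labelled females, triangles males and lines group means. Q140_Msh3KO animals lie at 0.12 to 0.44 on the left and -0.40 to -0.13 on the right, between Msh3KO and Q140 group means. The peaks were chosen on the Q140 and WT values, which favours a wide gap between Q140 and WT.

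The difference between the effects with and without Msh3 was past the threshold at 33 peaks, or 0.0226% of tested peaks. All 33 were called in Q140 vs WT, 19 as higher and 14 as lower, and in all 33 the effect was smaller in size without Msh3. Their median absolute log2 fold change was 1.66 in Q140 vs WT. The median without Msh3, signed by the direction in Q140 vs WT, was 0.29, with 25 of 33 of the same sign. Both effects enter the test that chose these peaks, which favours a wide gap between them. One of them was also called without Msh3, the peak near A430085M09Rik, at 1.14 without and 2.61 with Msh3 (interaction -1.47, adjusted p = 0.039). There were 9 such peaks without Q140_Msh3KO M1 and Q140 F2. Without 1 animal the count was 8 and 9 for WT M1 and M3, and 62, 12, 8, 21, 10 and 11 for Q140 F1, F2, F3, M1, M2 and M3. It was 17, 150, 15, 15 and 14 for Msh3KO F1, F3, M1, M2 and M3, and 18, 11, 8, 12 and 67 for Q140_Msh3KO F1, F2, M1, M2 and M3.

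Among those 33, Onecut1, Hoxc8 and Tbx5 belonged to the list of developmental regulators and Cbx8 to the 222 peaks of Polycomb complex subunits. Onecut1, a homeodomain transcription factor of developing brain and liver, had its promoter peak (chromosome 9, 74861498 to 74862162) at 3.30, 4.4 and 6.79 CPM in Msh3KO and 2.71, 4.33 and 5.64 in Q140_Msh3KO. The groups overlapped throughout, with a log2 fold change of -0.03 ± 0.18 (adjusted p = 0.996). WT animals held 3.19 to 4.30 CPM and Q140 animals 9.92 to 13.8, a rise of 1.60 ± 0.16, and the effects differed by -1.63 ± 0.24 (interaction adjusted p = 0.0016). The RefSeq promoter window of Onecut1 lies wholly inside this peak, and it is printed because of its base composition, with CG dinucleotides in capitals (chr9:74861671-74861970, plus strand, GRCm38.p6, 250 bases before to 50 after the start):
Onecut1 promoter: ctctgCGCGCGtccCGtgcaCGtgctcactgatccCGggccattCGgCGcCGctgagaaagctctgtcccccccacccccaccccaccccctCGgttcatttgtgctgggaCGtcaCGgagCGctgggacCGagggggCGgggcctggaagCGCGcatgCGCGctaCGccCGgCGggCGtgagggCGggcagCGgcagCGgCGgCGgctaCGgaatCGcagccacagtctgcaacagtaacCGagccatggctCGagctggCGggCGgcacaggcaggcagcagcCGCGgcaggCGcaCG
The window holds 38 CG dinucleotides and 73.0% G or C, against medians of 7 and 52.7% over 32851 promoter windows, and 4.95% of windows hold at least as many CG. The letters TATAAA had 0 matches on either strand in this window and occur in 13.6% of windows. None of the 169 called peaks overlapped such a window, whereas 8.33% of tested peaks did.

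Hoxc8, like Onecut1, had overlapping groups without Msh3. Near Hoxc8, a homeobox gene of body patterning, a peak 9.07 kb away (chromosome 15, 102999076 to 103000139) held 3.78, 5.12 and 7.31 CPM in Msh3KO and 3.13, 4.43 and 4.87 in Q140_Msh3KO, at -0.22 (adjusted p = 0.862) against 1.25 in Q140 vs WT. A peak 12.7 kb from Cbx8, a subunit of Polycomb repressive complex 1 (chromosome 11, 119053202 to 119054036), held 5.56, 6.78 and 10.6 CPM in Msh3KO and 5.70, 11.4 and 17.4 in Q140_Msh3KO, with overlap. Its log2 fold change was 0.65 ± 0.18 (adjusted p = 0.165) against 2.12 in Q140 vs WT, where Q140 animals held 23.6 to 35.7 CPM. In an intron of Tbx5, a T-box factor, the peak read 0.53 ± 0.18 (adjusted p = 0.329) against 1.81. Of the others, named after their values were seen, a peak near Emx2, a homeobox gene of forebrain, read 0.03 (adjusted p = 0.996) against 1.24, and the Serpina3g promoter, of a serine protease inhibitor, -0.54 (adjusted p = 0.207) against -1.96.

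No difference between females and males was called. The effect of the Htt allele without Msh3 gave 0 calls by edgeR in females, 0 in males and 0 for the difference between the sexes. The smallest adjusted p were 0.153, 0.157 and 0.663. At an unadjusted p under 0.05 there were 7277, 7778 and 4491 of 146155 tested peaks, beside 11220 for both sexes together. Each sex held 3 animals per genotype, so a difference between the sexes may be missed. All 169 peaks, chosen on both sexes together, had the same sign in each. The median log2 fold change was 0.87 in females and 0.99 in males over the 34 higher peaks and -0.81 and -0.88 over the 135 lower peaks, as a description. At Wnt4 the values were -1.09 in females and -0.99 in males, and at Dipk2a 1.00 and 1.30.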

How the data were processed

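ATAC-seq libraries of sorted NeuN-positive striatal nuclei from 24 mice were analysed. The values are raw read counts, which the authors deposited as 1 table of 147020 peaks that also holds positions, an annotated class, the distance to the nearest start and a gene symbol, per the file headers. BWA, SAMtools, Picard, MACS2, featureCounts and build GRCm38 are named in the submitters' processing notes. The sources used here do not give their versions, order or settings, the treatment of duplicates or any shift of cut sites. One set of peaks served all libraries. The deposited counts cover reads within peaks, so the share outside is unknown.

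Counts were tested in edgeR 4.0.16 (R 4.3.3). Peaks with too few counts were removed (filterByExpr, minimum 10), which left 146155, and libraries were scaled by TMM. A robust quasi-likelihood model with genotype and sex was fitted to all 24 libraries, the contrast was Q140_Msh3KO minus Msh3KO, and p-values were adjusted by Benjamini-Hochberg over all tested peaks at 0.05. The SE is the log2 fold change divided by the square root of F. The interaction is this effect minus that of Q140 vs WT, and sexes were compared in a model of genotype by sex. CPM use TMM library sizes, and mean log2 CPM a prior count of 2. The test was checked on simulated counts. No replicate libraries were duplicates: a chi-square of their counts, divided by the number of peaks, was 1.34 to 8.84 over 30 pairs.

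Named peaks were the 8 higher and 8 lower called peaks of largest absolute log2 fold change without overlap between groups and with a mean of at least 2 CPM in the higher group, 1 per gene, then up to 4 called peaks per list, then promoters of Htt, Msh3 and markers. Other genes are said to be picked afterwards. The comparison and the lists were chosen with earlier results of these data known, so lists are described by counts and medians without a test. Alternatives were other scalings, filters and models, DESeq2 1.42.0, limma 3.58.1, a replicate block and fits without each animal. A fit without Q140_Msh3KO M1 and Q140 F2 was added after seeing the data. Sequences come from RefSeq tables; sequence of the called peaks was not analysed here. One of the 14 most stable peaks is not reported here.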

Additional observations from a re-analysis of the deposited data

Results flagged for a closer look

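At 46 groups of 6 animals, those of the named peaks, the highest and lowest values were compared with the rest of their group, and chance sets apart about 1 group in 20. Among these, 3 peaks had 1 animal far from the others. At the Ptbp2 peak, Q140_Msh3KO M3 held 4.53 CPM and the other 5 held 2.61 to 3.21. At the Skint6 peak, Msh3KO F3 held 6.83 CPM against 3.93 to 4.62. At the Zfp990 peak, the same animal held 5.12 CPM against 2.74 to 3.32. Without Msh3KO F3 the Skint6 call held at an adjusted p of 0.015. The effect of the Htt allele differed with and without Msh3 at the peak near A430085M09Rik, where the interaction was -1.47.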

How the results depend on the processing

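All 169 peaks kept their sign under every scaling, model and filter that tested them and in the 12 fits without 1 animal. The count of calls did not keep: it was 385 among 67935 peaks with a mean count of at least 30 (128 higher, 257 lower), 37 with the 12 animals fitted alone, 301 with cyclic loess scaling, and 15 to 368 without 1 animal. The cause was not tested, except that the fit on 12 animals has fewer samples. Other counts were 119 with DESeq2 size factors, 183 with total counts, 176 without a filter, 169 without the sex term, 121 with limma-voom and 225 with DESeq2. With the replicate block there were 156. Replicate numbers did not pair the animals: deviations of same-numbered libraries correlated at -0.33 to 0.15, with 1 of 6 pairs over 0.1, and 1 of 6 libraries correlated best with its own number. The 33 peaks with a difference between effects became 61 with total counts, 261 with the mean count of at least 30, 55 with the replicate block, 8 with limma-voom, 99 with DESeq2 and 9 without Q140_Msh3KO M1 and Q140 F2. Without 1 animal that count ran from 8 to 150. The sex difference gave 0 calls in every fit run. For the 21 named peaks, 327 of 468 values kept the call, 141 lost it and 0 reversed. Of 960 list counts 83 moved. At a median of 27.8 counts per peak and library, the smallest called change was 0.54 on the log2 scale.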

Other observations

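Further called peaks lay near genes of axon guidance, cell adhesion and the neuronal cytoskeleton, named after their values were seen and with no list behind them. A peak in an intron of Nrp2, a receptor for semaphorins, held 5.98, 12.3 and 14.7 CPM as lowest, median and highest value in Msh3KO and 4.64, 5.85 and 8.94 in Q140_Msh3KO. The groups overlapped, and it fell by 0.87 ± 0.16 on the log2 scale (edgeR adjusted p = 0.012, and 0.052 without Q140_Msh3KO F3). Within an intron of Lsamp, an adhesion protein of limbic neurons, the peak gave -0.72 ± 0.16 (adjusted p = 0.049, and 0.211 without Q140_Msh3KO M3), also with overlap. In an intron of Dpysl5, a cytoskeletal regulator of axon growth within 20 Mb of Htt, the level was 5.58 to 7.91 CPM in Msh3KO and 6.07 to 15.1 in Q140_Msh3KO, and the log2 fold change was 0.79 ± 0.16 (adjusted p = 0.031, and 0.165 without Q140_Msh3KO M3).

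Other peaks lay near genes of signalling and gene control. The peak 104 kb from Tcf7l2, a transcription factor of the Wnt pathway, held 2.38, 3.64 and 5.24 CPM in Msh3KO and 4.81, 7.11 and 8.86 in Q140_Msh3KO, with overlap. Its log2 fold change was 0.90 ± 0.18 (adjusted p = 0.019, and 0.086 without Msh3KO M3). An intron of Galnt13, a glycosyltransferase of neurons, held a peak that went from 3.26 to 4.78 CPM in controls to 1.56 to 2.87 in carriers, with no overlap, and fell by 0.96 ± 0.20 (adjusted p = 0.031, and 0.140 without Q140_Msh3KO M3).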
